A study of Rattus norvegicus with 6 samples.

Results

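The genes described here are 34 antioxidant and NRF2 target genes of the rat, chosen by symbol from the 21857 rows of the count table. They cover NRF2 (Nfe2l2) and its inhibitor KEAP1, enzymes that NRF2 is known to induce, glutathione and thioredoxin enzymes, peroxiredoxins, peroxidases, superoxide dismutases and ferritin. All 34 had a row in the table, and 32 had enough counts to be tested.

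RNA was sequenced from adipose-derived mesenchymal stem cells of Sprague Dawley rats, stromal cells that can be grown from fat. The BCAA group (3 libraries) received 3.432 mM branched chain amino acids for 12 h, and the CON group (3 libraries) received vehicle for the same time. Both groups were kept in BCAA-free DMEM/HG with 10% FBS and were exposed to 100 µM hydrogen peroxide. Every library thus came from cells under an added oxidant, and no library without peroxide was analysed here. The BCAA mixture and the vehicle are not further described in the sources used here, and the origin of the replicates (animal or culture) is not given either. The p-values therefore cover only the variation among these 6 libraries, which may be technical. In bulk RNA of this kind, fewer cells of a type and less RNA per cell cannot be told apart.

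Hydrogen peroxide is removed in cells by catalase, by glutathione peroxidases, which draw electrons from glutathione, and by peroxiredoxins, which draw them from thioredoxin. The transcription factor NRF2 is held in the cytoplasm and marked for breakdown by KEAP1. Oxidants and electrophiles modify KEAP1, NRF2 then accumulates, and it induces genes through antioxidant response elements. Its classical targets include Nqo1, Gclc, Gclm, Txnrd1, Srxn1, Prdx1, Osgin1, Me1 and the ferritin genes.

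Library totals ran from 12802663 to 15654060 counts in the BCAA group and from 12725344 to 15739731 in the CON group, and the 34 genes took 0.923% to 0.954% and 0.930% to 0.965% of them. CON replicate 1 stood apart from the other 5 libraries on the first principal component (score 26.8 against -15.2 to 0.54). Of 11 mesenchymal stromal markers found in the table, 11 were above 1 CPM (counts scaled to a common library total, with factors from the TMM method) in every library. The 8 macrophage and leukocyte markers found were above 1 CPM in every library as well, with summed levels of 798 to 860.1 CPM in BCAA and 860.1 to 1029 CPM in CON, most of it from Lyz2. Smooth muscle and pericyte markers summed to 611 to 637 CPM in BCAA and 888 to 954 CPM in CON, most of it from Tagln. The smooth muscle sums did not overlap between the groups, while the macrophage and leukocyte sums all but touched (860.12 CPM in BCAA against 860.15 CPM in CON). Of these leukocyte markers, Lyz2, Cd14 and Aif1 were lower in sign in BCAA, and Ptprc, Cd68, Adgre1, Csf1r and Cd74 were higher. Of the endothelial markers 2 of 6 were above 1 CPM (sum 7.86 to 9.79 CPM in BCAA and 7.95 to 8.95 CPM in CON), and Cdh5 and Emcn were at or near 0. Of the adipocyte markers 2 of 7 were above 1 CPM (379.5 to 404 CPM in BCAA and 352 to 449 CPM in CON, nearly all from Lpl), and Adipoq and Plin1 were at or near 0. Epithelial markers (0.945 to 1.33 CPM in BCAA, 0.358 to 1.59 CPM in CON) and erythroid markers (0.127 to 0.470 CPM in BCAA, 0.143 to 0.313 CPM in CON, with Hbb at 0) were near absent. The part of these marker levels in the results below was not tested.

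No member passed the threshold between BCAA and CON, an adjusted p of 0.05 over all 12298 tested genes (edgeR's quasi-likelihood test, Benjamini-Hochberg). The background was 28 genes, or 0.228% of all tested. DESeq2 called 1 member, Txnrd2, the mitochondrial thioredoxin reductase, where it called 1.57% of the 8860 genes to which it gave an adjusted p. Of the tested members, Osgin1 and Mgst1 were given none by DESeq2. Txnrd2 was also the 1 member called by edgeR in the absence of a low-count filter (0.748% of all genes) and in the absence of CON replicate 1 (3.93% of all genes). At an unadjusted p under 0.05 there were 4 members of 32 (12.5%), against 11.8% of all tested genes. These were 1 higher in BCAA (Txnrd2, against 5.95% of all genes) and 3 lower in BCAA (Gss, Gpx7 and Prdx2, against 5.84% of all genes). The CPM values of the groups did not overlap in 9 of the 32 (28.1%), against 18.1% of all tested genes. BCAA lay above in 3 of these (9.29% of all genes) and below in 6 (8.76% of all genes). In sign, 12 members were higher and 20 lower in BCAA, with a median log2 fold change (BCAA over CON) of -0.03, beside 0.00 over all tested genes. Without scaling factors between libraries the median of the members was 0.00 and that of all genes 0.03, and 5 of the 20 members lower in sign turned.

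**Figure D1:**
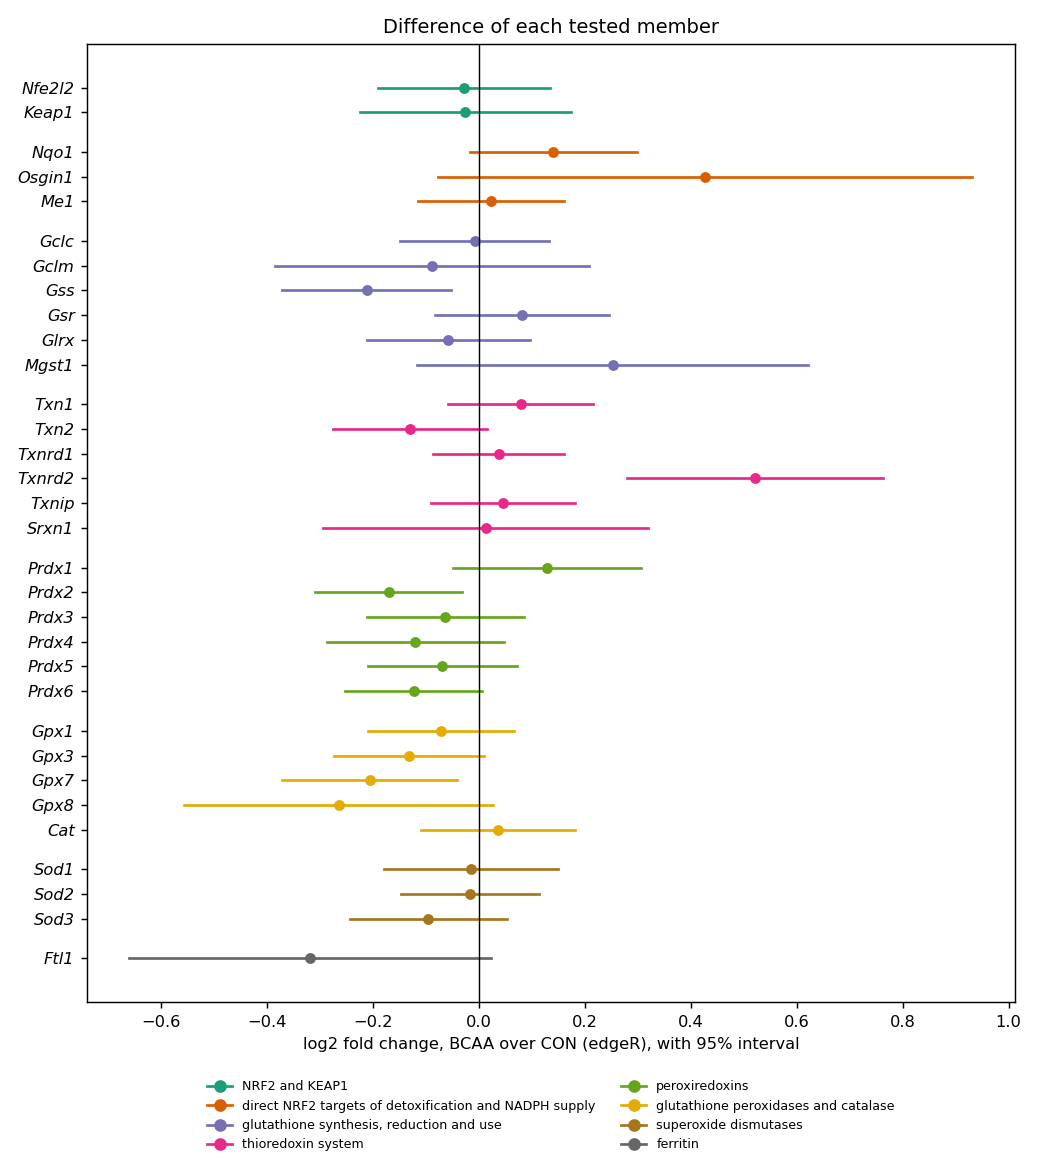
Log2 fold change of each of the 32 tested members, BCAA over CON, from edgeR (points) with its 95% interval (lines), grouped and coloured by role. The interval of Txnrd2 (0.52) lies above 0, and the intervals of Gss, Gpx7 and Prdx2 lie below 0. The intervals are not adjusted for the number of genes.

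NRF2 and its inhibitor were at like levels in both groups. Nfe2l2 was at 537, 537 and 563 CPM in the BCAA libraries and at 627, 512 and 529.6 CPM in the CON libraries. The highest value was that of CON replicate 1, and the BCAA libraries lay inside the CON range. The log2 fold change was -0.03 (SE 0.08, 95% interval -0.19 to 0.13; edgeR adjusted p = 0.92), and it was 0.07 without CON replicate 1. Keap1, the adaptor that brings NRF2 to its ubiquitin ligase, was at 33.7, 36.9 and 33.7 CPM in BCAA and 32.9, 38.4 and 34.7 CPM in CON. Its groups overlapped too, with a log2 fold change of -0.03 (SE 0.09, 95% interval -0.22 to 0.17; edgeR adjusted p = 0.94). Without scaling factors the sign of both genes turned, at 0.00 each. NRF2 is controlled mainly as a protein, so these transcript levels do not measure its activity.

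The 3 genes for detoxification and NADPH supply that NRF2 is known to induce were higher in sign, and none passed. Nqo1, the quinone reductase often used as a readout of NRF2, was at 120.3, 125 and 138 CPM in BCAA and 122, 115 and 110.0 CPM in CON. The groups overlapped only through BCAA replicate 1 and CON replicate 1. Its log2 fold change was 0.14 (SE 0.07; edgeR adjusted p = 0.48), and 0.08 without BCAA replicate 3. Osgin1, an oxidative stress-induced growth inhibitor gene, had 60, 63 and 60 counts in the BCAA libraries and 30, 59 and 45 counts in the CON libraries. In CPM this was 4.05, 3.99 and 4.70 in BCAA against 2.15, 3.75 and 3.53 in CON, with no overlap but with CON replicate 1 far below the rest. The log2 fold change was 0.43 (SE 0.23; edgeR adjusted p = 0.50) and 0.22 without CON replicate 1. Me1, the cytosolic malic enzyme that makes NADPH, averaged 128 ± 1.47 CPM in BCAA and 126 ± 3.89 CPM in CON (SD, n = 3 each), with a 95% interval of the log2 fold change of -0.12 to 0.16.

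**Figure D2:**
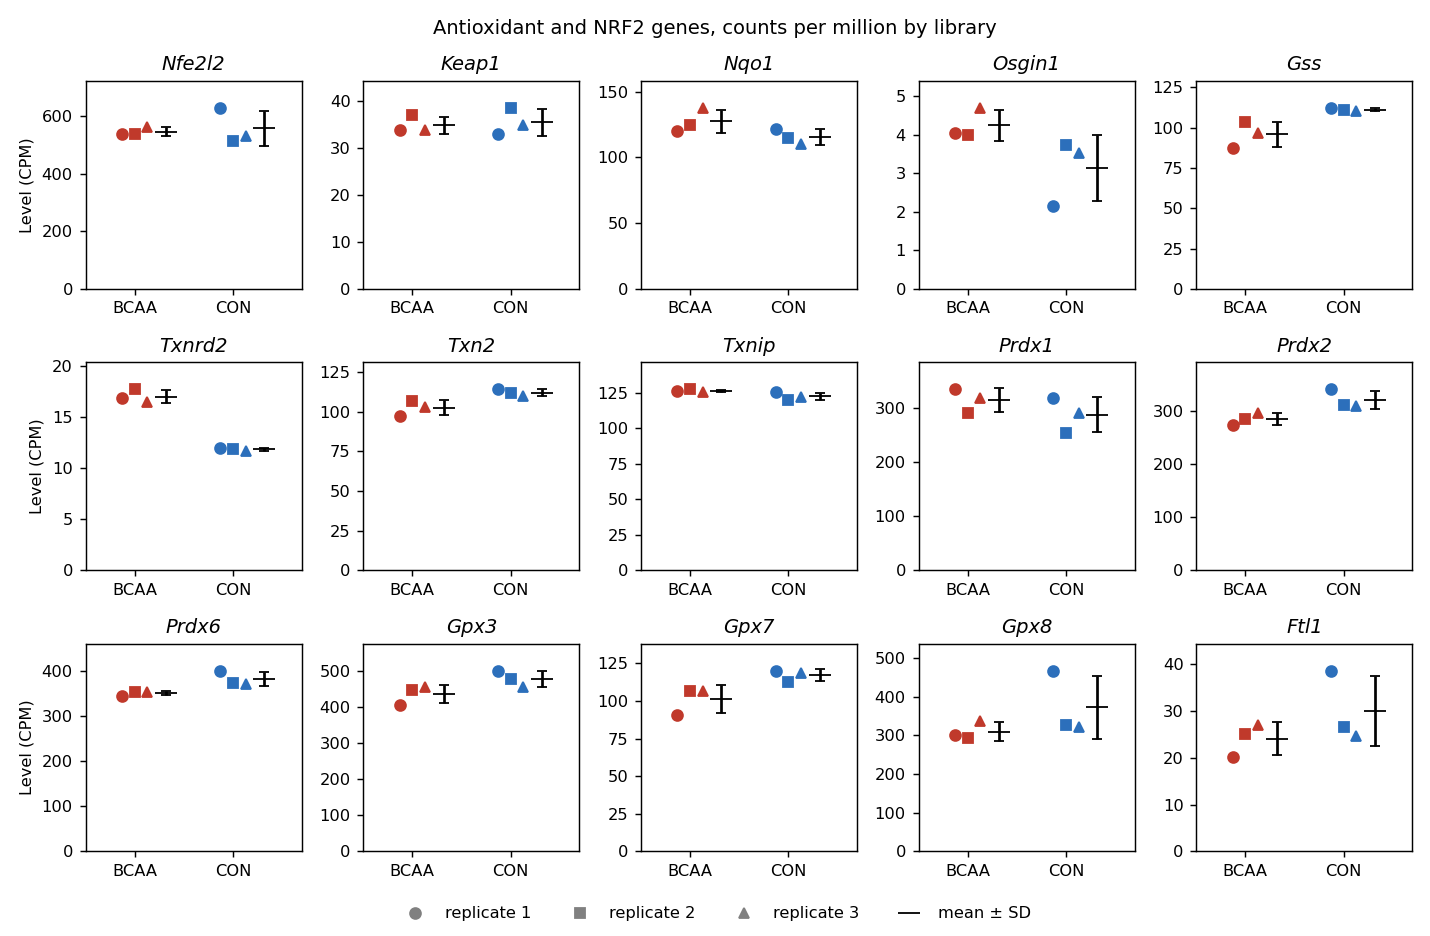
Levels (CPM, axis from 0) of 15 members in each library, BCAA left of CON, with symbols for the replicate and a bar for the mean ± SD of 3 libraries. Txnrd2 shows the clearest gap, 16.4 to 17.7 CPM in BCAA and 11.7 to 12.0 CPM in CON, while for Gpx8 and Ftl1 the spread in CON comes from replicate 1.

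Of the glutathione genes, Gss was lower in BCAA in every library. Gss encodes glutathione synthetase, the second enzyme of glutathione synthesis, and was at 87.6, 103 and 96.8 CPM in BCAA against 112, 111 and 110.5 CPM in CON. All BCAA libraries lay below all CON libraries, and the CON libraries differed little (SD 0.901 CPM). The log2 fold change was -0.21 (SE 0.07, 95% interval -0.37 to -0.05; unadjusted p = 0.013, edgeR adjusted p = 0.28). RefSeq places the muscle gene Myh7b over part of Gss, and Myh7b had 181 counts over all libraries (log2 fold change -0.48, SE 0.39). The part of shared reads in the Gss counts was not tested. The first and rate-limiting enzyme is made of a catalytic subunit, Gclc, and a modifier subunit, Gclm. Gclc averaged 126 ± 2.47 CPM in BCAA and 127 ± 5.20 CPM in CON, and its 95% interval of the log2 fold change was -0.15 to 0.13. Gclm averaged 14.6 ± 1.85 CPM in BCAA and 15.5 ± 2.25 CPM in CON, with a wider interval of -0.39 to 0.21. Gsr, the reductase that regenerates glutathione, had a log2 fold change of 0.08 (SE 0.08), Glrx, the cytosolic glutaredoxin, -0.06 (SE 0.07), and Mgst1, a membrane glutathione transferase, 0.25 (SE 0.17). Mgst1 was at 10.4 CPM in BCAA replicate 2 and between 7.56 and 7.59 CPM in the other BCAA libraries, against 6.41 to 8.16 CPM in CON, and its log2 fold change was 0.08 without BCAA replicate 2. RefSeq lists 10 copies named after Glrx, 9 of them pseudogenes, so its reads may be shared.

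In the thioredoxin system the mitochondrial reductase was higher and the mitochondrial thioredoxin lower in sign in BCAA, and neither passed. Txnrd2, which keeps mitochondrial thioredoxin reduced, was at 16.8, 17.7 and 16.4 CPM in the BCAA libraries against 12.0, 11.9 and 11.7 CPM in the CON libraries. In counts this was 249, 279 and 210 in BCAA against 167, 187 and 149 in CON. The gap between the groups was several times the spread within either of them (means 17.0 ± 0.636 CPM in BCAA and 11.8 ± 0.145 CPM in CON; SD, n = 3 each). Its log2 fold change came to 0.52 (SE 0.11, 95% interval 0.28 to 0.76), a 1.43-fold higher level in BCAA. Its unadjusted p was 0.00041 and the edgeR adjusted p 0.071, so it missed the threshold. The adjusted p was 0.045 by DESeq2, 0.039 in edgeR with no low-count filter and 0.020 in edgeR without CON replicate 1. Over all alternatives it ran up to 0.35, without BCAA replicate 2. The log2 fold change stayed between 0.49 and 0.55 over the 12 other settings.

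Whether counting used the strand is not given in the sources used here, so reads from stretches that genes share, on either strand, cannot be assigned with certainty. This holds for Txnrd2 as for other members.

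Txn2, the mitochondrial thioredoxin that Txnrd2 reduces, was at 97.5, 107 and 103 CPM in BCAA against 114, 112 and 110.2 CPM in CON. The groups did not overlap, with BCAA below, and the log2 fold change was -0.13 (SE 0.07; edgeR adjusted p = 0.47). Their cytosolic counterparts were closer between the groups. Txnrd1, the cytosolic reductase and an NRF2 target, averaged 405 ± 9.01 CPM in BCAA and 394 ± 3.96 CPM in CON, and the 95% interval of its log2 fold change was -0.09 to 0.16. The interval of Txnrd2 did not overlap that of Txnrd1, but the difference between these genes was not tested. Txn1, cytosolic thioredoxin, averaged 421 ± 20.0 CPM in BCAA and 398 ± 17.9 CPM in CON (log2 fold change 0.08, SE 0.06). Txnip, the arrestin-like protein that binds and inhibits thioredoxin, was at 126, 127 and 125 CPM in BCAA against 125, 119.7 and 122 CPM in CON. The values did not overlap but nearly touched, and the log2 fold change was 0.04 (SE 0.06, 95% interval -0.09 to 0.18; edgeR adjusted p = 0.83). Srxn1, sulfiredoxin, which repairs overoxidised peroxiredoxins and is an NRF2 target, averaged 16.7 ± 1.43 CPM in BCAA and 16.5 ± 3.20 CPM in CON. Its log2 fold change of 0.01 (SE 0.14) turned to -0.13 without CON replicate 1 and to -0.06 without BCAA replicate 1.

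Promoter sequences are shown for the reductase with the clearest difference, Txnrd2, and for 4 known NRF2 targets picked because their promoters hold the core of the antioxidant response element. They come from RefSeq, build GRCr8, and run from 250 bases before to 50 bases after a gene's start. They lie at chr11:96072426-96072725, minus strand (Txnrd2), chr7:22755855-22756154, minus strand (Txnrd1, one of its annotated starts), chr2:213031885-213032184, plus strand (Gclm), chr5:135383656-135383955, plus strand (Prdx1) and chr8:96540195-96540494, minus strand (Me1). Capitals mark the core, TGAC followed by any 3 bases and GC, on either strand, or the AP-1 motif, TGACTCA or TGAGTCA. On the opposite strand the core reads GC, any 3 bases, GTCA.
Txnrd2: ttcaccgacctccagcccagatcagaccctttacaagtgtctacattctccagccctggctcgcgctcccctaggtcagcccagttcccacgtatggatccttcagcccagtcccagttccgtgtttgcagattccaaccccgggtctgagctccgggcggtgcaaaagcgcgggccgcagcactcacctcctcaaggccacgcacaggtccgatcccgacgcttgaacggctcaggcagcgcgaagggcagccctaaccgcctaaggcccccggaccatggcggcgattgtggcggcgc
Txnrd1: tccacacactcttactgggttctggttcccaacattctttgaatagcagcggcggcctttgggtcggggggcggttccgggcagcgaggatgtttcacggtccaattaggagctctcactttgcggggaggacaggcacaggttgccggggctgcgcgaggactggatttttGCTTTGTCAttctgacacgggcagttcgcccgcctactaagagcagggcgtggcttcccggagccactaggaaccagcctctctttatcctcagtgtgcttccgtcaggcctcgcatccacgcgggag
Gclm: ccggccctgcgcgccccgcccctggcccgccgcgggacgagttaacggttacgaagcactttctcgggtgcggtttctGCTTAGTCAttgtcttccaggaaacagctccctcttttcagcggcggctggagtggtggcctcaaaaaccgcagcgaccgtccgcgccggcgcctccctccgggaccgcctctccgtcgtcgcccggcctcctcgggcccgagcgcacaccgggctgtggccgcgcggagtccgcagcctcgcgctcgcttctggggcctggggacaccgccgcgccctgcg
Prdx1: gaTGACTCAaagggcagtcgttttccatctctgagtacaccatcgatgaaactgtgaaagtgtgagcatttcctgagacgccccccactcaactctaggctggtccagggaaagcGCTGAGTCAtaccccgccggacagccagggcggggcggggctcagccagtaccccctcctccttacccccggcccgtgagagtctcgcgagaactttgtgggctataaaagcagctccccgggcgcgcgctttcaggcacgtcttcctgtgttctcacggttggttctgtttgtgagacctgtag
Me1: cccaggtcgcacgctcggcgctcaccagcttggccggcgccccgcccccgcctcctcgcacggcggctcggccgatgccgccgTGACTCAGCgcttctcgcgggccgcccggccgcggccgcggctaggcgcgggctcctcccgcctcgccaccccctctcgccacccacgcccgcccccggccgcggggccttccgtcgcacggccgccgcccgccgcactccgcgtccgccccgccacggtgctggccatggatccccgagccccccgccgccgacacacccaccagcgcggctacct
In the Prdx1 and Me1 promoters the core and the AP-1 motif overlap, and Prdx1 has a second AP-1 motif near the far end of the window. The table held 30 promoter windows of 27 of the 34 members, since a gene can have several starts. The core was in 8 of these 30 windows (26.7%), each of another gene, against 12.1% of all 33469 windows. Besides Txnrd1, Gclm, Prdx1 and Me1 these were Nfe2l2, Prdx4, Prdx5 and Sod2. The known targets Nqo1, Gclc, Osgin1 and Srxn1 held no core of this form in this window, as Txnrd2 did not. In Srxn1 an AP-1 motif, TGAGTCA, is followed by GC, so this stretch departs from the core only by a G in place of C. The 8 members with the core had log2 fold changes of -0.12 to 0.13 (median -0.02), and the 18 tested members without it -0.21 to 0.52 (median -0.02). The AP-1 motif was in 4 of the 30 windows (13.3%), against 4.63% of all windows, namely Me1, Glrx, Srxn1 and Prdx1. The E box CACGTG was in 2 of the 30 windows, those of Prdx4 and Gpx1 (6.67%, against 6.42% of all windows). Txnrd2, whose log2 fold change lay farthest from 0 among the tested members, held none of these letters in its window.

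Among the peroxiredoxins, which reduce peroxide with a reactive cysteine, 5 of 6 were lower and 1 was higher in sign, and none passed. Prdx2, an abundant cytosolic form, was at 275, 285 and 297 CPM in BCAA against 341, 312 and 311 CPM in CON. All BCAA libraries lay below all CON libraries, with a log2 fold change of -0.17 (SE 0.06, 95% interval -0.31 to -0.03; unadjusted p = 0.019, edgeR adjusted p = 0.32). Prdx6, the peroxiredoxin that also acts on phospholipids, was at 346, 353 and 354 CPM in BCAA against 401, 374 and 372 CPM in CON. The groups did not overlap here either, and the log2 fold change was -0.12 (SE 0.06; edgeR adjusted p = 0.45). Prdx1, the member of this family best known as an NRF2 target, went the other way in sign, with 335, 292 and 319.8 CPM in BCAA against 319, 255 and 292 CPM in CON. Its groups overlapped, replicate 2 was the lowest in each, and the log2 fold change was 0.13 (SE 0.08; edgeR adjusted p = 0.58). It was 0.04 without CON replicate 2, 0.08 without BCAA replicate 1 and 0.21 without CON replicate 1.

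The other peroxiredoxins overlapped between the groups. Prdx3, the mitochondrial form, averaged 122 ± 3.35 CPM in BCAA and 128 ± 7.45 CPM in CON. Prdx4, the form of the endoplasmic reticulum, averaged 81.5 ± 4.44 CPM in BCAA and 88.6 ± 6.38 CPM in CON. Prdx5, found in mitochondria, peroxisomes and cytosol, averaged 2128 ± 98.6 CPM in BCAA and 2233 ± 121 CPM in CON. Their log2 fold changes were -0.06 (SE 0.07), -0.12 (SE 0.08) and -0.07 (SE 0.07). RefSeq lists 8 copies named after Prdx1 and 3 named after Prdx6, and it places Trmt112 next to Prdx5 with an overlap, so their counts may hold or lack shared reads.

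**Figure D3:**
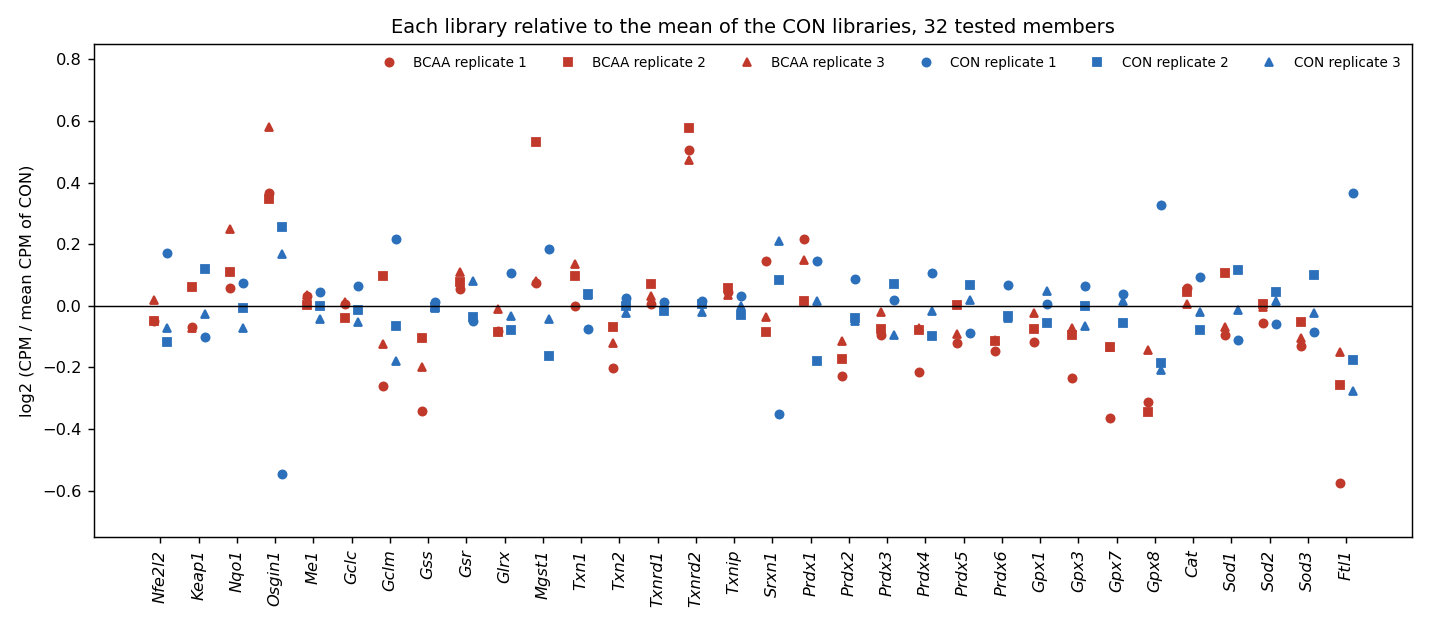
Each library's level relative to the mean of the CON libraries (log2 of the CPM ratio) for the 32 tested members, BCAA in red left of CON in blue, with symbols for the replicate. The Txnrd2 points of BCAA stand above all CON points, while for Osgin1, Srxn1, Gpx8 and Ftl1 CON replicate 1 lies far from the other CON libraries.

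Of the glutathione peroxidases, 4 were tested and 4 were lower in sign in BCAA, and none passed. Gpx7, a peroxidase of the endoplasmic reticulum that hands oxidation to protein disulfide isomerase, was at 90.9, 107 and 107 CPM in BCAA against 120.1, 112 and 118 CPM in CON. The groups did not overlap, and the log2 fold change was -0.21 (SE 0.08, 95% interval -0.37 to -0.04; unadjusted p = 0.018, edgeR adjusted p = 0.32). Gpx3, the secreted peroxidase of plasma, was at 407, 448 and 455 CPM in BCAA against 501, 478 and 457 CPM in CON. BCAA lay below CON without overlap, though BCAA replicate 3 and CON replicate 3 nearly met, and the log2 fold change was -0.13 (SE 0.07; edgeR adjusted p = 0.46), and -0.09 without BCAA replicate 1. Gpx8, another peroxidase of the endoplasmic reticulum, was at 299.7, 293 and 336 CPM in BCAA against 467, 327 and 322 CPM in CON. Its groups overlapped, and its log2 fold change of -0.27 (SE 0.13; edgeR adjusted p = 0.47) was -0.07 without CON replicate 1. Gpx1, the cytosolic selenoenzyme, averaged 158 ± 5.18 CPM in BCAA and 166 ± 5.84 CPM in CON (log2 fold change -0.07, SE 0.06).

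Gpx4, the peroxidase of lipid hydroperoxides, had 8, 2 and 5 counts in the BCAA libraries and 1, 0 and 1 counts in the CON libraries. It was under the low-count filter and was not tested, and no fold is given at such counts. RefSeq lists 4 pseudogenes named after Gpx4, so reads of a gene with such copies may have gone uncounted, and these counts are not its expression level.

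Catalase and the superoxide dismutases were at like levels in both groups. Cat, the peroxisomal catalase, averaged 139 ± 2.56 CPM in BCAA and 136 ± 8.16 CPM in CON, with a 95% interval of the log2 fold change of -0.11 to 0.18. Sod1, the cytosolic copper and zinc enzyme, averaged 247 ± 19.2 CPM in BCAA and 249.8 ± 20.1 CPM in CON (interval -0.18 to 0.15). Sod2, the mitochondrial manganese enzyme, averaged 2119 ± 48.5 CPM in BCAA and 2144 ± 79.3 CPM in CON (interval -0.15 to 0.11). Sod3, the secreted enzyme, averaged 140.3 ± 3.91 CPM in BCAA and 149.9 ± 9.86 CPM in CON (interval -0.24 to 0.05). In all 4 the libraries of the groups overlapped.

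Of the ferritin genes only the light chain, Ftl1, was tested. Ftl1, which stores iron together with the heavy chain, was at 20.1, 25.1 and 27.0 CPM in BCAA against 38.6, 26.5 and 24.8 CPM in CON. The groups overlapped, CON replicate 1 was the highest and BCAA replicate 1 the lowest. The log2 fold change was -0.32 (SE 0.16, 95% interval -0.66 to 0.02; edgeR adjusted p = 0.46) and -0.10 without CON replicate 1. Of the copies that RefSeq names after Ftl1, 1 has its own row in the count table. Reads of Ftl1 may thus have gone uncounted or to a copy, so its counts may not give its expression level. Fth1, the heavy chain with the ferroxidase site, is listed at 0 in all 6 libraries. RefSeq lists 6 copies named after Fth1 and 21 named after Ftl1. Of 74 ribosomal protein gene rows, which stand for genes every cell uses, 2 were also listed at 0, namely Rpl10a and Rpl23a, so a 0 in this table does not show that a gene was silent.

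Other genes of the same pathways were taken from 7 lists, and none of their genes passed the threshold with edgeR on all libraries. Near 0 the sign of a gene depends on the scaling between libraries, so the sign counts without scaling factors are given beside each. The counts at an unadjusted p under 0.05 stand against 5.95% of all tested genes higher and 5.84% lower, and the calls without CON replicate 1 against 3.93% of all genes tested there. Among 14 tested NRF2 partners and regulators, 10 were higher and 4 lower in sign (11 and 3 without scaling factors; median log2 fold change 0.06), 2 of them at an unadjusted p under 0.05. Sqstm1, which encodes p62, a protein that binds KEAP1 and is itself an NRF2 target, averaged 1039.5 ± 51.5 CPM in BCAA and 902 ± 74.1 CPM in CON (log2 fold change 0.20, SE 0.07; edgeR adjusted p = 0.28). Gsk3b, a kinase that marks NRF2 for breakdown, had 0.20 (SE 0.09), Bach1, a repressor at antioxidant response elements, 0.16 (SE 0.10), and Cul3, the scaffold of the KEAP1 ligase, 0.14 (SE 0.09). Without CON replicate 1, Cul3 was called higher.

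Of 25 tested other NRF2 targets, 13 were higher and 12 lower in sign (18 and 7 without scaling factors; median 0.02), 4 and 1 of them at an unadjusted p under 0.05. Hmox1, haem oxygenase, was at 426, 453 and 469 CPM in BCAA against 403, 359.6 and 354 CPM in CON (log2 fold change 0.27, SE 0.07; edgeR adjusted p = 0.13). Ugdh, which makes UDP-glucuronate, was at 515, 541 and 561 CPM in BCAA against 629, 626 and 645 CPM in CON (-0.23, SE 0.06; edgeR adjusted p = 0.13). Neither gene's groups overlapped, and they lay on opposite sides. Abcc4, an efflux pump, had a log2 fold change of 0.42 (SE 0.11) and Slc7a11, the cystine importer that feeds glutathione synthesis, 0.22 (SE 0.07). DESeq2 called Hmox1 higher and Ugdh lower, edgeR with no low-count filter called Hmox1 higher, and without CON replicate 1 edgeR called Hmox1 and Slc7a11 higher and Ugdh lower, where 3.93% of all tested genes were called.

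Of 28 other glutathione, thioredoxin and glutaredoxin genes tested, 5 were higher and 23 lower in sign (12 and 16 without scaling factors; median -0.06), and 1 had an unadjusted p under 0.05. This was Ggct, the cyclotransferase that breaks down gamma-glutamyl peptides, at 28.2 ± 0.762 CPM in BCAA and 34.8 ± 2.55 CPM in CON (log2 fold change -0.30, SE 0.09; edgeR adjusted p = 0.19). Glrx2, the mitochondrial glutaredoxin, had -0.20 (SE 0.10), Txndc17, a cytosolic thioredoxin-like protein, -0.20 (SE 0.10), and Gstz1, a glutathione transferase of tyrosine breakdown, -0.30 (SE 0.15).

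The selenoproteins, sestrins and methionine sulfoxide reductases had 4 of 19 tested genes higher and 15 lower in sign (6 and 13 without scaling factors; median -0.07). Selenom, a selenoprotein of the endoplasmic reticulum, was at 319, 326 and 310.4 CPM in BCAA against 386, 389.9 and 399 CPM in CON. The groups were far apart for their spread, with a log2 fold change of -0.30 (SE 0.06; edgeR adjusted p = 0.054), and Selenom was called lower by DESeq2 and by edgeR with no low-count filter or with CON replicate 1 left out. Selenok, also of the endoplasmic reticulum, had -0.26 (SE 0.10), and Pon2, a membrane-bound lactonase, -0.17 (SE 0.09). Sesn2, a stress-induced sestrin that also binds leucine, was at 93.9, 91.7 and 89.7 CPM in BCAA against 73.5, 78.5 and 80.5 CPM in CON (log2 fold change 0.24, SE 0.07; edgeR adjusted p = 0.17).

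Of 13 enzymes that produce oxidants, 9 were higher and 4 lower in sign (9 and 4 without scaling factors; median 0.05). Ero1a, the oxidase of the endoplasmic reticulum that makes hydrogen peroxide, averaged 211 ± 13.2 CPM in BCAA and 180.0 ± 12.8 CPM in CON (log2 fold change 0.23, SE 0.07; edgeR adjusted p = 0.22). The dual oxidases were scarce, Duox2 at 2.99 ± 0.734 CPM in BCAA and 1.65 ± 0.471 CPM in CON, and Duox1 at 2.81 ± 0.685 CPM in BCAA and 3.91 ± 0.401 CPM in CON. Without CON replicate 1, Cyba, a subunit of NADPH oxidases, was called lower.

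Of 10 iron handling genes, 4 were higher and 6 lower in sign (5 and 5 without scaling factors; median -0.04). Tfrc, the transferrin receptor, was at 171, 152 and 166 CPM in BCAA against 141, 116 and 122 CPM in CON. All BCAA libraries lay above all CON libraries, with a log2 fold change of 0.37 (SE 0.08; edgeR adjusted p = 0.071), and DESeq2, the fit without the low-count filter and the fit without CON replicate 1 called it higher. Slc11a2, the iron importer DMT1, had 0.13 (SE 0.07), Ireb2, an iron-responsive element binding protein, 0.15 (SE 0.08), and Steap3, an iron reductase, 0.23 (SE 0.13).

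Txnip is also known as a target of MondoA and ChREBP, sugar-sensing transcription factors. Of 10 tested genes of that list 7 were higher and 3 lower in sign (8 and 2 without scaling factors; median 0.19, beside 0.00 over all tested genes), and 4 had an unadjusted p under 0.05, all of them higher (5.95% of all tested genes were). Arrdc4, an arrestin-like paralogue of Txnip under the same factors, was at 46.8, 47.8 and 46.4 CPM in BCAA against 38.4, 39.7 and 37.9 CPM in CON (log2 fold change 0.28, SE 0.08; edgeR adjusted p = 0.16). Arrdc3, another paralogue, had 0.27 (SE 0.08), the zinc finger factor Klf11 0.31 (SE 0.11) and Mxd1, a partner of MAX, 0.19 (SE 0.09). Txnip itself had 0.04 (SE 0.06). Without CON replicate 1, where 3.93% of all genes were called, Arrdc3 and Klf10 were called higher.

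**Figure D4:**
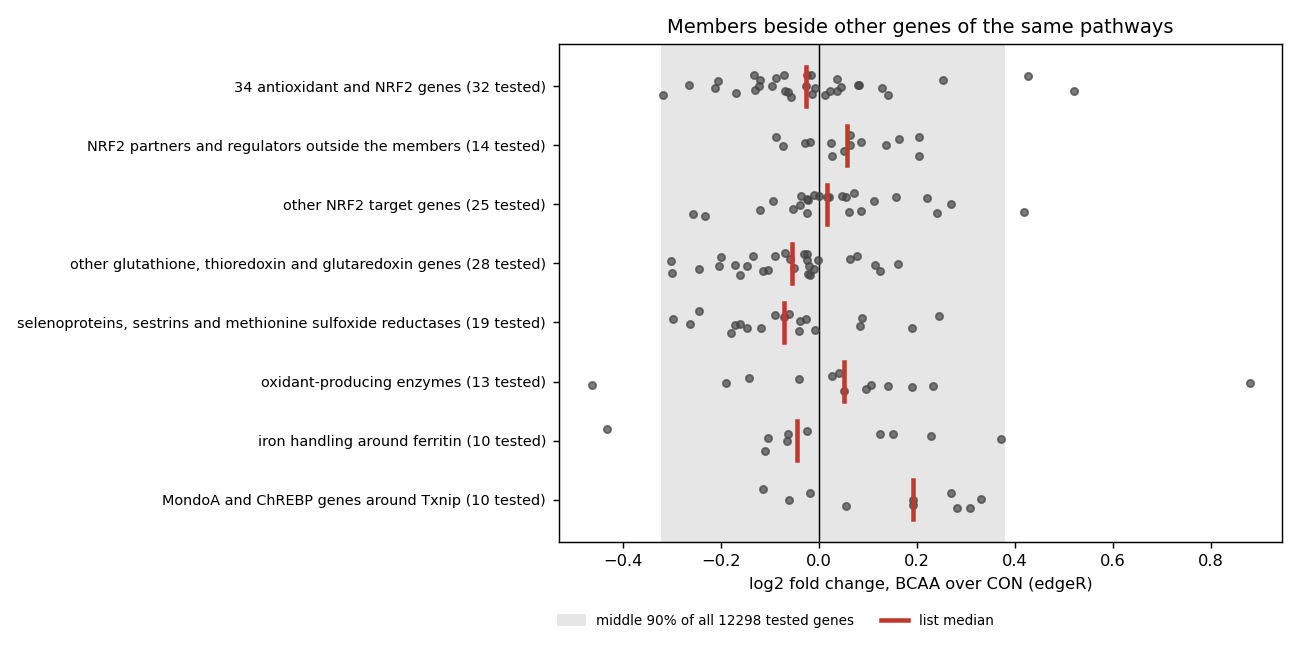
Log2 fold change (BCAA over CON, edgeR) of each tested gene, one row per list, with the list's median as a red bar and the middle 90% of all 12298 tested genes in grey (-0.32 to 0.38). Points are spread up and down within a row only to keep them apart. Most members lie inside the grey band, and Txnrd2 (0.52) and Osgin1 (0.43) lie above it.

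The differences named above depended on single libraries to unequal degrees. Without CON replicate 1 the log2 fold change of Gpx8 was -0.07 against -0.27 with it, that of Ftl1 -0.10 against -0.32 and that of Osgin1 0.22 against 0.43. Gss, Gpx7 and Txnrd2 had -0.20, -0.19 and 0.53 without it, close to their values over all 6 libraries. Prdx2 had -0.13 without it against -0.17 with it, and Prdx6 -0.09 against -0.12. Without BCAA replicate 1 Gss had -0.15 and Gpx7 -0.14.

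**Figure D5:**
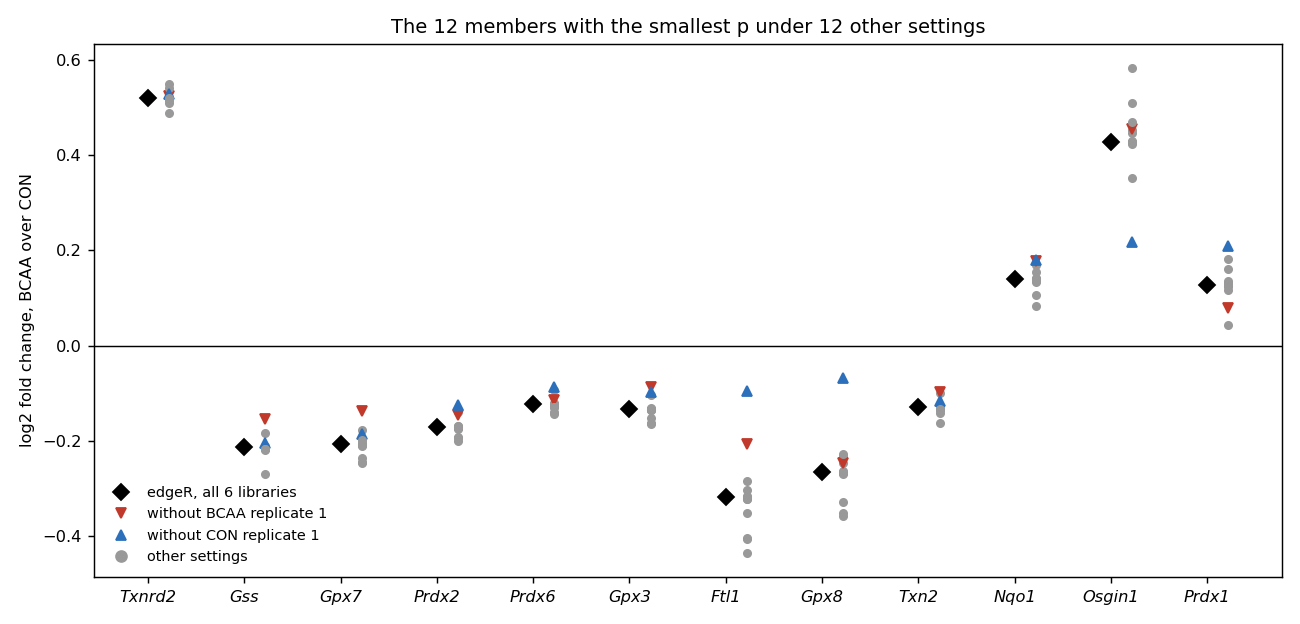
Log2 fold change (BCAA over CON) of the 12 members with the smallest unadjusted p, with edgeR on all 6 libraries (black diamonds) and under 12 other settings (other symbols, drawn to the right). Each of the 12 keeps its sign, Txnrd2 stays between 0.49 and 0.55, and Gpx8, Ftl1 and Osgin1 move most without CON replicate 1.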

How the data were processed

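TRIzol RNA went into NEBNext Ultra libraries, per the labels' protocols. The authors deposited whole-number counts for each gene symbol in each of the 6 libraries, without normalization. The submitters' processing notes name Trimmomatic, FastQC, STAR, HTSeq and rn6. Versions, annotation and strand setting: not given in the sources used here. Columns were matched to library titles.

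BCAA was compared with CON by edgeR's quasi-likelihood test (edgeR 4.0.16, R 4.3.3, robust, TMM scaling, filterByExpr with a minimum count of 10), with group as the only term. Of 21857 genes 12298 were tested, holding 99.9% of counts; p-values were Benjamini-Hochberg adjusted over all of them and called under 0.05. The standard error (SE) is the log2 fold change over the square root of F, and intervals use the fit's degrees of freedom. CPM values use TMM-scaled totals. Intervals and SEs cover the spread between these libraries. Levels were not compared between genes, as no transcript lengths were used. DESeq2 1.42.0, other scalings and filters, the replicate block and leaving out each library were alternatives. The fit was tested on simulated data.

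The members and lists were chosen with earlier results of these data known. Full values are given for the 12 members with the smallest p, Nfe2l2, Keap1 and members whose groups did not overlap; of each other list, up to 4 genes with the smallest p are named. Cyba and Klf10 fall outside that rule and were named after their values were seen. Symbols, copies, overlaps and promoters come from RefSeq (GRCr8). Chi-square per degree of freedom was 2.65 to 18.1 over the 15 pairs of libraries, so none was a copy of another. Protein sequences were not used here. A few results on single genes are not reported here.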

Additional observations from a re-analysis of the deposited data

How the results depend on the processing

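Over all genes, 28 were called with edgeR on all libraries, 139 by DESeq2, 124 with no low-count filter and 6 with the replicate block. Leaving out 1 library gave 7 to 491 calls over all genes, the highest without CON replicate 1, where 3.93% of tested genes were called. The count of members called was 1 by DESeq2 and 1 with no low-count filter (Txnrd2 in both), and 0 to 1 when 1 library was left out, 1 of them (Txnrd2) without CON replicate 1. Without scaling factors the log2 fold change turned sign for Nfe2l2 (0.0040), Keap1 (0.0031), Gclc (0.022), Sod1 (0.013) and Sod2 (0.012), all near 0. When 1 library was left out, the sign turned at least once for Nfe2l2 (range -0.086 to 0.068), Keap1 (-0.074 to 0.038), Gclc (-0.034 to 0.025), Gclm (-0.20 to 0.033), Srxn1 (-0.13 to 0.12), Cat (-0.0032 to 0.086), Sod1 (-0.082 to 0.046) and Sod2 (-0.045 to 0.0037). The cause was not tested. The members' median ran from -0.05 to 0.00 over the alternatives. Deviations of equally numbered libraries correlated at -0.07, 0.11 and -0.15 over genes, so the numbers were not taken as pairs; the replicate block called 0 members. No value could be had for Fth1, and Osgin1, Mgst1, Gclm, Srxn1 and Txnrd2 rest on the fewest counts among tested members.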

Other observations

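Within the CON group, CON replicate 1 was the highest library for 21 of the 32 tested members and the lowest for 9. Over all tested genes it was the highest for 39.5% and the lowest for 40.2%. Within the BCAA group, BCAA replicate 1 was the lowest library for 21 of the 32 and the highest for 3, against 37.1% and 35.4% of all tested genes. Over the 32 members the median deviation from the group mean was 0.04 (log2) for CON replicate 1 and -0.04 for BCAA replicate 1. The members' median log2 fold change was -0.03 over all libraries, -0.05 without CON replicate 1 and -0.02 without BCAA replicate 1. The part of these libraries in that median was not tested.

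By where the protein works, a grouping made after the values were seen and given without a test, the members of the endoplasmic reticulum or outside the cell (Prdx4, Gpx7, Gpx8, Gpx3 and Sod3) had log2 fold changes of -0.27 to -0.10, with 5 of 5 lower in sign. Their median was -0.13 with all libraries and -0.10 without CON replicate 1. Beside this, 20 of the 32 tested members and 6054 of all 12298 tested genes were lower in sign. The 4 mitochondrial members (Txn2, Txnrd2, Prdx3 and Sod2) ranged from -0.13 to 0.52, with 3 lower in sign. The 13 cytosolic enzymes ranged from -0.21 to 0.14, with 7 lower and 6 higher in sign. None of these genes was called with edgeR over all libraries.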
